A study of Homo sapiens with 15 samples.

Results

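The genes described here are the nuclear-encoded part of the mitochondrial respiratory chain, measured in MDA-MB-231 cells, a triple-negative breast cancer line. They were chosen by name: gene probes whose array name or current symbol begins with NDUFA, NDUFB, NDUFC, NDUFS, NDUFV, SDHA to SDHD, UQCR, COX4 to COX8 or ATP5, or is CYC1. The rule took 141 of 41000 gene probes, which stand for 100 of 30989 genes, 35 of them under an older name on the array. The rule goes by name and uses no measured value. By role, 78 of the 100 are structural subunits (37 of complex I, 4 of complex II, 9 of complex III, 11 of complex IV and 17 of complex V). The rest are 6 tissue isoforms of complex IV subunits, 10 assembly factors and 3 associated factors. A further 3 genes were matched by name and are neither subunits nor factors of the chain (EMC8, NDUFV1-DT and SDHAP2).

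The respiratory chain moves electrons from NADH and succinate to oxygen and pumps protons across the inner mitochondrial membrane. Complex I takes electrons from NADH, complex II from succinate as part of the citrate cycle, complex III passes them to cytochrome c, complex IV reduces oxygen, and complex V, ATP synthase, uses the proton gradient to make ATP. Most subunits are encoded in the nucleus and imported, while complexes I, III, IV and V also hold subunits encoded in mitochondrial DNA, and complex II holds none. CtBP2 is a transcriptional corepressor that dimerizes upon binding NADH.

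With 15 arrays, 5 each, 3 treatments were set against control cells: shCtBP2 cells, which carry a stable short hairpin RNA against CtBP2 and were selected with puromycin, and cells exposed to either of the small-molecule CtBP2 inhibitors HIPP and P4. All cells were collected at 24 h. HIPP is the oxime and P4 the hydrazone of sodium phenylpyruvate, and the labels do not give the concentrations used for the arrays. On every array the treated cells were labelled with Cy5 and the control cells with Cy3. The labels give untreated MDA-MB-231 cells as the control throughout, whereas the paper sets shCtBP2 cells against cells with a scrambled hairpin. The values below are log2 ratios of treated over control signal, and a percentage of control is the ratio itself. Because the dyes were never exchanged, a dye effect of a gene and a change common to all treatments cannot be told apart, whereas a constant dye effect cancels in a difference between treatments. Nothing states whether the replicates were separate cultures or whether arrays shared a control extract, so the p-values measure the spread between these arrays.

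Between 64.9 and 81.0% of the gene spots on an array were well above background in a channel, and no spot was saturated. Of the 100 genes, 97 were well above background in both channels of all 5 arrays of each treatment, and 2, COX7A1 and COXFA4L2, were so on no array. The ratio of CTBP2 itself averaged -0.41 ± 0.11 (SD, n = 5) in shCtBP2 cells, which is 75.4% of control. It was lower on all 5 arrays and missed the threshold (adjusted p = 0.0602, or 0.0353 with the replicate number as a block in limma). The same ratio was 0.57 ± 0.36 with HIPP (adjusted p = 0.0026) and 0.17 ± 0.35 with P4 (adjusted p = 0.345). VIM, CD44, ZEB1 and FN1, which mark mesenchymal breast cancer cells, were above background on all 15 arrays in both channels. CDH1 and PGR were so on none. EPCAM and ERBB2, listed as low in this line, were above background on all 15, and ESR1, listed as low too, in the control channel of 11 and the treated channel of 12. Of the markers of other cell types, COL3A1 was above background on 0 arrays, ALB in the treated channel of 1 array only and PTPRC in the control channel of 2 arrays only, while CD3E, PECAM1, VWF and COL1A1 were above it on 11 to 15. The part of such cells in the results was not tested.

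The arrays of an inhibitor did not resemble each other equally. The number of respiratory chain genes with a log2 ratio below -1 was 2, 11, 6, 19 and 18 on HIPP arrays 1 to 5, and 12, 1, 0, 10 and 10 on P4 arrays 1 to 5. On the shCtBP2 arrays it was 1, 0, 0, 1 and 0. Of all genes above background, 7.19, 10.8, 7.72, 13.1 and 12.9% lay below -1 on the 5 HIPP arrays and 7.26, 4.81, 3.28, 5.29 and 5.27% on the 5 P4 arrays. The standard deviation over the arrays was above 0.5 for 15 of the 100 genes with HIPP, 11 with P4 and 1 in shCtBP2 cells. The arrays lay on 4 slides, so values within a slide are also given: slide 1 held P4 arrays 1 to 4, slide 2 held P4 array 5 and HIPP arrays 1 to 3, slide 3 held HIPP arrays 4 and 5 and shCtBP2 arrays 1 and 2, and slide 4 held shCtBP2 arrays 3 to 5.

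**Figure D1:**
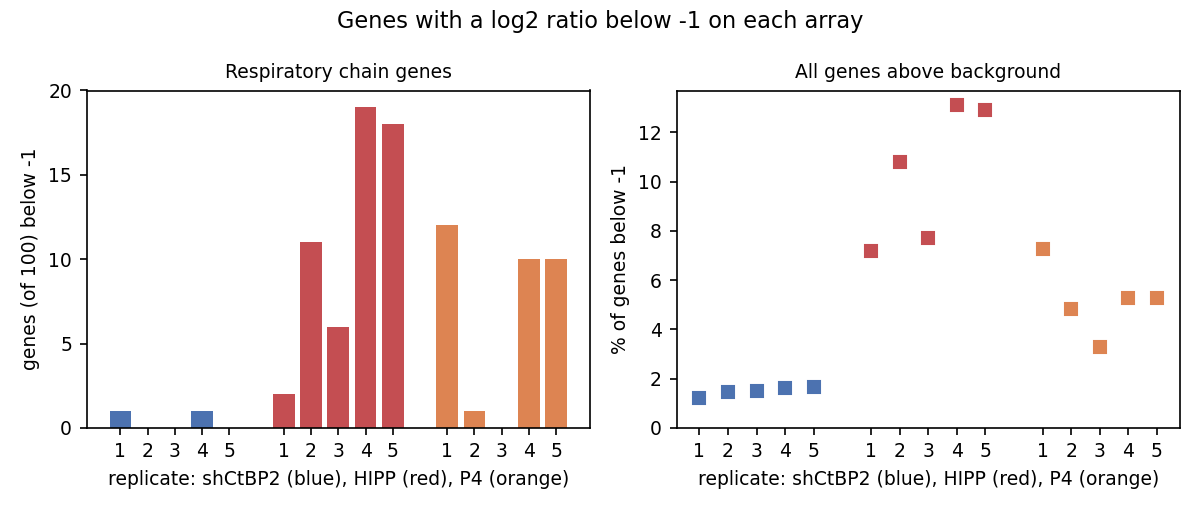
Number of the 100 respiratory chain genes with a log2 ratio below -1 on each array (left, bars) and the percentage of all genes above background with such a ratio (right, squares), by replicate. The count is highest on HIPP arrays 4 and 5, with 19 and 18 genes, and reaches 10 or more on HIPP array 2 and on P4 arrays 1, 4 and 5.

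Respiratory chain transcripts were more often lower than higher with HIPP, and with P4 under the scaling of the scanner software. With HIPP, 34 of the 83 respiratory chain genes tested were lower than control and 14 higher at an adjusted p under 0.05, that is 41.0 and 16.9%, where 23.9 and 24.8% of all genes tested were lower and higher. With P4, 24 of 81 were lower and 9 higher, or 29.6 and 11.1%, against 14.8 and 17.0% of all genes. In shCtBP2 cells 3 of 60 were lower and 4 higher, against 6.87 and 6.52% of all genes. The split depended on the scaling for P4 and shCtBP2 cells. An alternative used background-subtracted signals centred on each array's median, without the software's dye correction. There P4 had 16 lower and 25 higher (17.3 and 17.6% of all genes). In that setting shCtBP2 cells had 1 lower and 10 higher (8.68 and 8.53%), while HIPP had 38 lower and 14 higher (26.5 and 24.3%). With uncorrected mean signals the median of all genes was itself -0.20, -0.40 and -0.25 in shCtBP2 cells, HIPP and P4. There 45 genes were lower and 0 higher with HIPP, 6 and 2 with P4, and 2 and 0 in shCtBP2 cells. Of all genes, 19424 were then lower and 437 higher with HIPP, 11955 and 483 with P4, and 10718 and 133 in shCtBP2 cells. Lower calls were thus general in that setting and not particular to these genes. The genes not tested had been left out by the filter on the interquartile range. All 34 genes lower with HIPP were below control on every array, as were 23 of the 24 lower with P4.

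Counts without that filter are also given, since it lets a gene pass through the group where it differs. Over all 100 genes, 36 were lower and 16 higher with HIPP (21.9 and 23.2% of all genes), 26 and 10 with P4 (14.1 and 15.5%), and 3 and 3 in shCtBP2 cells (5.88 and 5.54%). Limited to probes above background, 36 of 83 genes were lower and 14 higher with HIPP (34.6 and 31.5% of all genes so limited). With P4 these counts were 26 and 12 of 89 (23.2 and 24.0%), and in shCtBP2 cells 6 and 7 of 67 (11.9 and 11.3%). Genes above background were called more often in general, so the share of lower genes stood nearer to that of all genes in this comparison. The counts by complex, role and list below are out of the genes tested, so the limit of the filter holds for them too. The shares of all genes beside them include dim genes. The median log2 ratio of the 100 genes was -0.17 with HIPP, -0.07 with P4 and 0.01 in shCtBP2 cells, where the median of all genes was 0.07, 0.08 and 0.02. Few of the falls were large. With the fold change of the study's methods as a second threshold, 3 genes remained with HIPP (2.5-fold: ATP5MC3, ATP5F1A and NDUFAF6), 6 with P4 (1.8-fold, among them ATP5F1A, ATP5F1B, ATP5F1C, SDHB and UQCRFS1) and 0 in shCtBP2 cells (1.5-fold), and all 9 calls were falls. With the brightest probe of each gene, ATP5MC3 and NDUFAF6 had means of -0.54 and -0.85 with HIPP, short of 2.5-fold, while ATP5F1A stayed at -1.56. Of all genes, 7.04, 8.46 and 6.55% passed both thresholds. The means in shCtBP2 cells ran from -0.38 to 0.41, all short of 1.5-fold, so the fold change alone set that count to 0. Without it the methods' t-test had 2 genes higher and 2 lower there after adjustment, and 8 and 9 at an unadjusted p under 0.05.

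**Figure D2:**
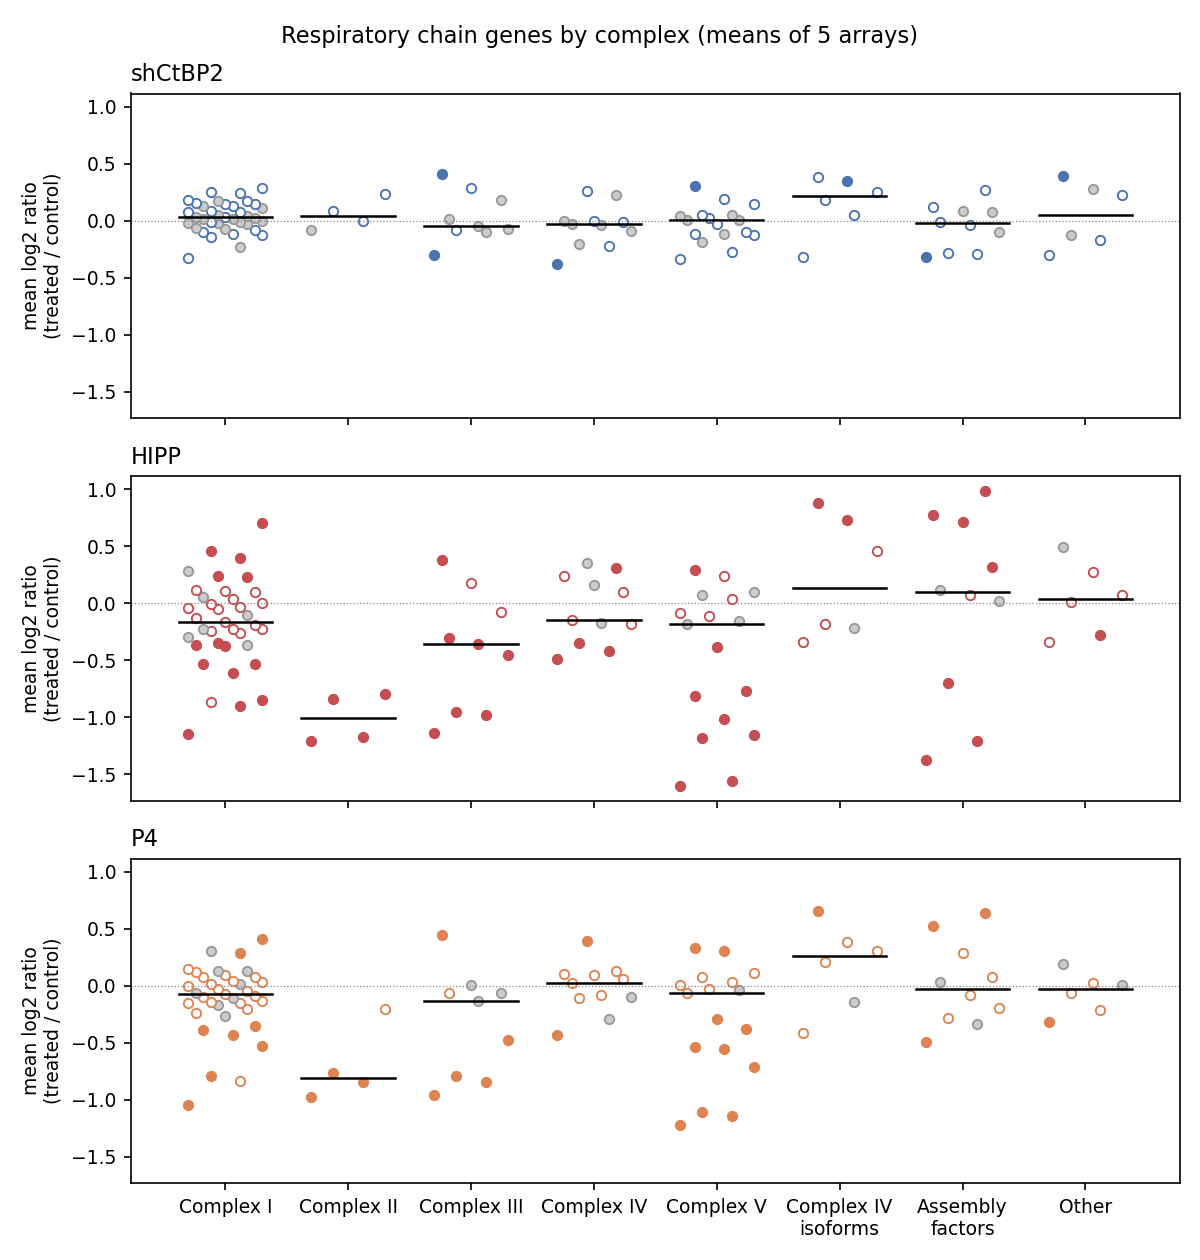
Mean log2 ratio (treated over control, 5 arrays) of the 100 respiratory chain genes in shCtBP2 cells and with HIPP and P4, by complex and role. Filled points passed the adjusted threshold, open points were tested and did not, grey points were left out by the filter, and lines are medians. The 4 complex II subunits have medians of -1.01 with HIPP and -0.80 with P4, against 0.04 in shCtBP2 cells.

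Complex II, succinate dehydrogenase, was the complex in which every subunit fell with HIPP. By limma 4 of 4 were lower with HIPP and 3 of 4 with P4, against 23.9 and 14.8% of all genes. With the methods' t-test SDHB, SDHC and SDHD lost their calls with HIPP, as did SDHB and SDHD with P4. With uncorrected mean signals 0 of 4 were called lower with P4. Its 4 subunits are SDHA, the flavoprotein that oxidizes succinate, SDHB, the iron-sulfur protein, and the membrane anchors SDHC and SDHD. SDHA had log2 ratios of -0.54, -0.81, -0.62, -0.87 and -1.10 on HIPP arrays 1 to 5 and of -0.84, -0.50, -0.63, -0.73 and -1.12 on the P4 arrays. It was therefore similarly low on all 10 inhibitor arrays, at 57.8% of control with HIPP (mean -0.79 ± 0.22, SD, n = 5, adjusted p = 2.76e-05) and 58.9% with P4 (-0.76 ± 0.23, adjusted p = 0.000139). On the shCtBP2 arrays its ratios were 0.09, 0.09, -0.04, -0.39 and -0.18, above those of all inhibitor arrays.

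SDHB and SDHD fell by more on average and varied more from array to array. SDHB read -0.19, -1.34, -0.78, -2.23 and -1.50 on the HIPP arrays and -1.44, -0.13, -0.44, -1.48 and -1.37 on the P4 arrays, with 43.2% of control as the HIPP mean (-1.21 ± 0.77, adjusted p = 0.000959) and 51.0% as the P4 mean (-0.97 ± 0.64, adjusted p = 0.00842). SDHD read -0.29, -0.98, -0.75, -2.36 and -1.49 with HIPP (mean -1.17 ± 0.79, adjusted p = 0.000847) and -1.25, -0.18, -0.37, -1.35 and -1.08 with P4 (-0.85 ± 0.54, adjusted p = 0.0141). For both genes HIPP arrays 2, 4 and 5 and P4 arrays 1, 4 and 5 lay furthest from 0, and the call of SDHD with P4 was lost without P4 array 4 or 5. SDHC was at -0.48, -0.85, -0.07, -1.44 and -1.36 with HIPP (mean -0.84 ± 0.58, adjusted p = 0.0155), a call lost without HIPP array 4 or 5 and with normexp and loess. With P4 it was at -1.33, 0.82, 0.59, -0.66 and -0.43, of both signs, with a mean of -0.20 ± 0.89 (adjusted p = 0.565). In shCtBP2 cells the means of SDHB, SDHC and SDHD were 0.00 ± 0.27, 0.23 ± 0.23 and 0.08 ± 0.23, none past the threshold.

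Within slides the fall of complex II had the same direction. On slide 3 the 2 HIPP arrays averaged -0.99 for SDHA, -1.87 for SDHB, -1.40 for SDHC and -1.92 for SDHD, against 0.09, 0.29, 0.42 and 0.32 on the 2 shCtBP2 arrays beside them. On slide 2 the 3 HIPP arrays averaged -0.66, -0.77, -0.46 and -0.67 in the same order, and the single P4 array there read -1.12, -1.37, -0.43 and -1.08. The signals of the channels, taken relative to the array's median, showed where the ratio of SDHB moved. Its control signal lay between 7.11 and 7.65 on the HIPP arrays on the log2 scale and its treated signal between 5.06 and 7.04.

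**Figure D3:**
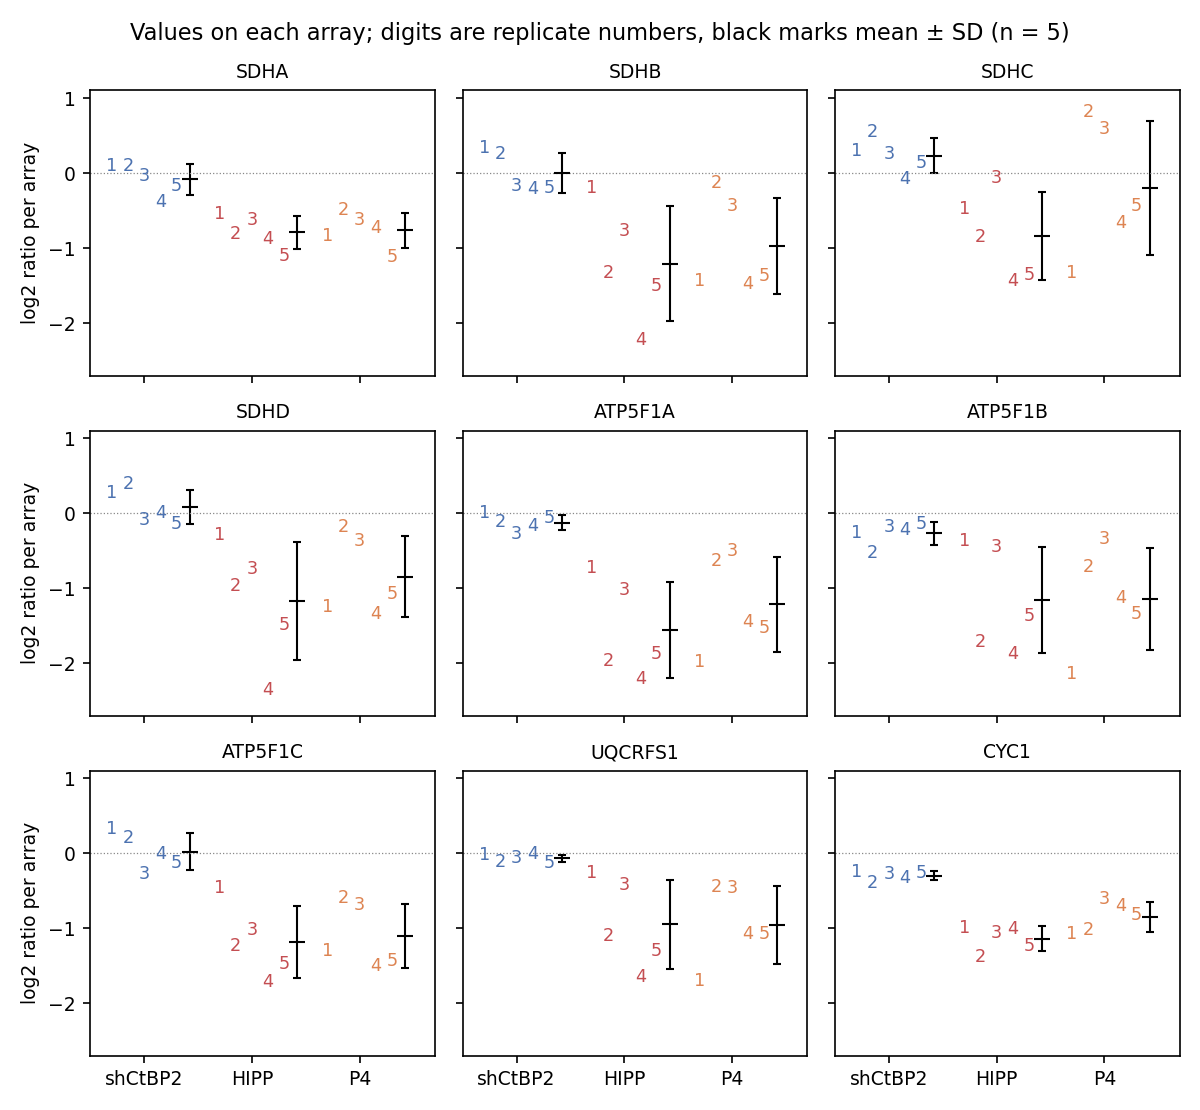
Log2 ratio of 9 subunit genes on each array. Digits are replicate numbers, and black marks are mean ± SD (n = 5). SDHA and CYC1 have similar values on the 5 arrays of an inhibitor, whereas SDHB, SDHD and the ATP5F1 genes reach about -2 on HIPP array 4 and lie nearer to 0 on HIPP array 1 and P4 arrays 2 and 3.

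The starts of these genes are shown because promoters of respiratory chain genes are known to bind NRF1 and ETS factors of the GABP type, and SDHA, SDHB and SDHD were lower with both inhibitors. They are the bases just before the transcription start in RefSeq (GRCh38.p14), up to 250 and cut where another gene begins, written 5′ to 3′ on the strand of the gene. SDHA lies at chr5:218154-218319 on the plus strand, SDHB at chr1:17054033-17054282 on the minus strand and SDHD at chr11:112086757-112086872 on the plus strand. Capitals mark matches on either strand to GCGCANGCG, the core of the NRF1 motif, or to the ETS core CCGGAAG.
SDHA: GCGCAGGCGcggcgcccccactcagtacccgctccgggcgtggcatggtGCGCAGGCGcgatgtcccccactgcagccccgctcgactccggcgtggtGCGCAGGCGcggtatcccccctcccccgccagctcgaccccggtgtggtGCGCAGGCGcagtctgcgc
SDHB: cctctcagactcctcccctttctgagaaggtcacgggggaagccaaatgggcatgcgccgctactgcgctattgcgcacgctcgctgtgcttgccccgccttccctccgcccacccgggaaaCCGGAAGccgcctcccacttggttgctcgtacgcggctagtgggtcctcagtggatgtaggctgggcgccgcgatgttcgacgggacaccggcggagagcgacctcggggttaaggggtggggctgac
SDHD: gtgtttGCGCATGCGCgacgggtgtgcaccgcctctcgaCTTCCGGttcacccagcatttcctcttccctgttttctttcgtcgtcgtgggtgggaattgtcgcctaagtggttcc

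SDHA holds 4 NRF1 matches, SDHD holds 1 NRF1 and 1 ETS match, and SDHB holds 1 ETS match. Of the 100 genes, 82 had an entry in the promoter table, SDHC not among them. Over 250 bases searched on both strands, with overlapping matches counted as 1, NRF1 matches stood in 22 of these 82 promoters (26.8%), against 6.56% of all 35116 promoters in the table, and ETS matches in 21 (25.6%), against 8.52%. The YY1 motif AAGATGGC stood in 1 of 82 (1.22%), against 1.36% of all promoters. Among subunits, an NRF1 match stood before 9 of 24 genes lower with HIPP and 11 of 41 others, and an ETS match before 5 of 24 and 12 of 41. The motifs do not overlap in letters, and a match is a description of the sequence, not a bound site.

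Complex V, ATP synthase, held the genes that fell furthest. With HIPP 8 of its 13 subunits tested were lower and 1 higher, and with P4 8 of 16 were lower and 2 higher, where 23.9 and 24.8% of all genes were lower and higher with HIPP and 14.8 and 17.0% with P4. In shCtBP2 cells 0 of 11 were lower and 1 was higher. Over all 17 subunits, tested or not, the median was -0.18 with HIPP and -0.06 with P4. The lower count with P4 was 5 with slide as a block (31.2%, against 5.88% of all genes) and 4 with background-subtracted signals centred on the median (25.0%, against 17.3%). The catalytic head is built from ATP5F1A and ATP5F1B, the alternating alpha and beta subunits, around ATP5F1C, the rotating gamma subunit. ATP5F1A read -0.73, -1.97, -1.03, -2.21 and -1.88 with HIPP and -1.98, -0.64, -0.50, -1.45 and -1.53 with P4. All 10 values were below the range of the shCtBP2 arrays, -0.28 to 0.00. The means were 33.9% of control with HIPP (-1.56 ± 0.64, adjusted p = 3.69e-05) and 43.0% with P4 (-1.22 ± 0.63, adjusted p = 0.000868).

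ATP5F1B and ATP5F1C showed similar falls. ATP5F1B read -0.37, -1.71, -0.45, -1.88 and -1.37 with HIPP (mean -1.16 ± 0.71, adjusted p = 0.00102) and -2.14, -0.72, -0.35, -1.14 and -1.35 with P4 (-1.14 ± 0.68, adjusted p = 0.00247), and the call with P4 was lost with slide as a block. ATP5F1C read -0.46, -1.23, -1.02, -1.72 and -1.48 with HIPP (mean -1.18 ± 0.48), and -1.30, -0.59, -0.69, -1.50 and -1.44 with P4, 46.5% of control. ATP5F1E, the small epsilon subunit of the same stalk, was higher with both inhibitors, at 0.29 ± 0.09 with HIPP (adjusted p = 0.00349) and 0.31 ± 0.09 with P4 (adjusted p = 0.00504), and on all 10 arrays. In shCtBP2 cells ATP5F1A, ATP5F1B and ATP5F1C averaged -0.13, -0.27 and 0.02, none past the threshold.

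The bases before ATP5F1A (chr18:46104228-46104384, minus strand) and ATP5F1C (chr10:7787994-7788176, plus strand) are shown because the genes fell together. ATP5F1C holds 1 NRF1 match, in capitals, and ATP5F1A has no match to the 3 motifs in this window.
ATP5F1A: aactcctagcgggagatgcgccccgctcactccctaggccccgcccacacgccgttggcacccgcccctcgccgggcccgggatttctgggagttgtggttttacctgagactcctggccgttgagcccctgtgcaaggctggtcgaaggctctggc
ATP5F1C: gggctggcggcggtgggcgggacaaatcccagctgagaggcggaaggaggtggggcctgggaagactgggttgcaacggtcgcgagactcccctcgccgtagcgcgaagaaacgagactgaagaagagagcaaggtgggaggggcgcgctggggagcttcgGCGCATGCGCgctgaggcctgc

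In the membrane part of ATP synthase, the probes of a gene did not always show the same value. ATP5MC3, 1 of the genes for the ring subunit c, had the lowest mean with HIPP, 33.0% of control (-1.60 ± 0.26, adjusted p = 6.55e-08). Its brighter probe averaged -0.54 with HIPP and -0.63 with P4, while its dimmer probe averaged -2.66 and -0.79, and the size of the fall with HIPP therefore rests on the dimmer probe. ATP5MG, subunit g, was at -1.01 ± 0.37 with HIPP, where the brighter probe averaged 0.03 and the dimmer one -2.05. With P4 it was called lower at -0.53 (adjusted p = 0.00497), and by the brighter probe alone it was called higher, at 0.20 (adjusted p = 0.0388). ATP5MC1, a further gene for subunit c, was at -0.77 ± 0.17 with HIPP and -0.38 ± 0.22 with P4, and ATP5PB, the stator subunit b, at -0.81 ± 0.34 and -0.56 ± 0.21. ATP5PO, which joins the stator to the head, moved little but evenly, with -0.36, -0.33, -0.35, -0.38 and -0.51 on the HIPP arrays (adjusted p = 0.000287). ATP5ME, subunit e, was higher in shCtBP2 cells (0.30 ± 0.06, adjusted p = 0.0262) and with P4 (0.33 ± 0.18, adjusted p = 0.00744). ATP5IF1, the inhibitory factor of the enzyme, was at 0.07 ± 0.24 with HIPP (adjusted p = 0.66).

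Complex III had 6 of 9 subunits tested lower with HIPP and 4 of 6 with P4 (23.9 and 14.8% of all genes). Over all 9 subunits the median was -0.36 with HIPP and -0.13 with P4. CYC1, cytochrome c1, which hands electrons to cytochrome c, was similar from array to array, with -0.999, -1.38, -1.06, -1.01 and -1.23 on the HIPP arrays and -1.08, -1.02, -0.61, -0.71 and -0.82 on the P4 arrays. That is 45.4% of control with HIPP (-1.14 ± 0.16, adjusted p = 1.14e-07) and 55.6% with P4 (-0.85 ± 0.20, adjusted p = 9.69e-06). CYC1 was also lower in shCtBP2 cells, at -0.25, -0.39, -0.28, -0.33 and -0.26 (81.0% of control, adjusted p = 0.0321), a call that was lost in 9 alternatives, among them the removal of any 1 shCtBP2 array. UQCRFS1, the Rieske iron-sulfur protein, read -0.26, -1.11, -0.43, -1.65 and -1.30 with HIPP (mean -0.95 ± 0.59, adjusted p = 0.0009) and -1.70, -0.45, -0.46, -1.08 and -1.08 with P4 (-0.95 ± 0.52, adjusted p = 0.00194). UQCR10 was at -0.98 ± 0.38 with HIPP and -0.79 ± 0.23 with P4. The core protein UQCRC1 was lower with HIPP (-0.31 ± 0.20, adjusted p = 0.0352), as were UQCRH and UQCR11.

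UQCRQ, a small subunit of complex III, went the other way in every treatment. It averaged 0.38 ± 0.12 with HIPP, 0.44 ± 0.20 with P4 and 0.41 ± 0.08 in shCtBP2 cells (adjusted p = 0.0017, 0.00125 and 0.00517), and was above control on all 15 arrays. When slide was a block UQCRQ no longer passed in shCtBP2 cells, nor did it with P4 when the P4 arrays were fitted alone. A dye effect of this gene and a change common to the treatments cannot be told apart here.

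Complex I has the most subunits, and its counts moved with the fit. With HIPP 9 of 31 subunits tested were lower and 5 higher (29.0 and 16.1%, against 23.9 and 24.8% of all genes), with P4 6 of 29 were lower and 2 higher (20.7 and 6.90%, against 14.8 and 17.0%), and in shCtBP2 cells 0 of 20 were called in either direction by limma. Limited to probes above background, 34.6% of all genes were lower with HIPP and 23.2% with P4, more than these shares of complex I. With the replicate number as a block 14 of 31 (45.2%) were lower with HIPP, against 25.9% of all genes, since NDUFA5, NDUFB3, NDUFB5, NDUFB7 and NDUFS1 then passed. The count was also 14 with normexp and loess (19.2% of all genes), and it was 5 of 28 without HIPP array 4 (21.8% of all genes). With P4 it was 3 of 29 with slide as a block (10.3%, against 5.88% of all genes). Without P4 array 1, 4 or 5 it was 3 of 34, 25 and 24. With background-subtracted signals centred on the median 9 of 31 were higher with P4 (29.0%, against 17.6% of all genes). The median of the 37 subunits was -0.17 with HIPP and -0.07 with P4. NDUFB5, which was chosen after its values were seen, varied widely between arrays, from -2.55 to 0.49 with HIPP and from -1.81 to 0.62 with P4, and was not called (adjusted p = 0.0786 and 0.111, or 0.0233 and 0.0362 with the replicate number as a block in limma).

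The other subunits of complex I named here varied less between arrays than NDUFB5. NDUFA9 read -0.72, -1.27, -0.68, -0.91 and -0.92 with HIPP (53.6% of control, adjusted p = 1.35e-05), and NDUFS3, a core subunit, was at -0.53 ± 0.08 with HIPP and -0.35 ± 0.07 with P4. NDUFA10 was at -0.85 ± 0.54 and -0.79 ± 0.64, and NDUFAB1, the mitochondrial acyl carrier protein, at -0.61 ± 0.34 and -0.39 ± 0.22. Of the genes that rose, NDUFA7 averaged 0.70 ± 0.16 with HIPP (162% of control, adjusted p = 4.35e-06) and 0.41 ± 0.11 with P4 (adjusted p = 0.00131). NDUFV3, NDUFA6, NDUFS5 and NDUFS7 were higher with HIPP, by 0.23 to 0.46 on average, and NDUFA3 with P4.

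Complex IV, cytochrome c oxidase, showed small changes. With HIPP 3 of 8 subunits tested were lower and 1 higher (23.9 and 24.8% of all genes), with P4 1 of 9 was lower and 1 higher (14.8 and 17.0%), and in shCtBP2 cells 1 of 5 was lower. Without the filter 2 of 11 were higher with HIPP (23.2% of all genes) and 2 of 11 lower with P4 (14.1%). COX5A was lower with HIPP (-0.49 ± 0.20, adjusted p = 0.000922) and P4 (-0.43 ± 0.28, adjusted p = 0.00461). COX7B and COXFA4, the former NDUFA4, were lower with HIPP, at -0.42 ± 0.28 and -0.35 ± 0.33. The call of COXFA4 was lost without HIPP array 2, 4 or 5. COX4I1, the common form of the regulatory subunit, averaged -0.15 ± 0.07 with HIPP (adjusted p = 0.135).

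COX5B, a zinc-binding subunit of complex IV, had opposite signs in shCtBP2 cells and with the inhibitors, although with uncorrected mean signals the difference between HIPP and shCtBP2 turned to -0.0431. It read -0.48, -0.28, -0.44, -0.38 and -0.34 on the shCtBP2 arrays (76.7% of control, adjusted p = 0.00428), 0.16, 0.50, 0.20, 0.36 and 0.32 on the HIPP arrays (124%, adjusted p = 0.00345) and 0.41, 0.51, 0.24, 0.31 and 0.48 on the P4 arrays (131%, adjusted p = 0.00143). All 5 shCtBP2 values lay below all 10 inhibitor values. On slide 3, where both were present, the 2 HIPP arrays averaged 0.34 and the 2 shCtBP2 arrays -0.38.

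Of the tissue isoforms of complex IV, 2 of 5 tested were higher with HIPP, 1 of 5 with P4 and 1 of 6 in shCtBP2 cells (24.8, 17.0 and 6.52% of all genes), and none was lower. COX6A2, known as the heart and muscle form of its subunit, was higher with HIPP (0.10, 0.76, 0.89, 1.76 and 0.90, adjusted p = 0.00207) and with P4 (0.51, 0.20, 0.68, 1.38 and 0.50, adjusted p = 0.0225), the latter lost without P4 array 4, with slide as a block and with the P4 arrays fitted alone. COX7B2 was higher in shCtBP2 cells (0.35 ± 0.12, adjusted p = 0.0252). COX4I2, a form of COX4 known from lung, averaged -0.22 ± 0.20 with HIPP and was left out by the filter there. COXFA4L2 passed the threshold with HIPP but was not well above background on any array, so no fold is given.

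Assembly factors build the complexes without staying in them. With HIPP 4 of 8 tested were higher and 3 lower (24.8 and 23.9% of all genes), with P4 2 of 8 were higher and 1 lower (17.0 and 14.8%), and in shCtBP2 cells NDUFAF5 was lower (-0.32 ± 0.12, adjusted p = 0.018). NDUFAF7, a methyltransferase of complex I assembly, read 1.03, 1.19, 0.98, 0.73 and 1.00 on the HIPP arrays, 198% of control (adjusted p = 3.59e-06), and 0.57, 1.01, 0.33, 0.31 and 0.42 on the P4 arrays (144%, adjusted p = 0.00213). NDUFAF1 was at 0.78 ± 0.28 with HIPP and 0.64 ± 0.29 with P4. The calls of both with P4 were lost with slide as a block, and that of NDUFAF7 also with the P4 arrays fitted alone. NDUFAF3 was at 0.71 ± 0.21 with HIPP (adjusted p = 6.09e-05) and at -0.29 ± 0.10 in shCtBP2 cells (adjusted p = 0.08, or 0.0317 with the replicate number as a block in limma). SDHAF3, which helps to mature SDHB, fell with HIPP to 43.4% of control (-0.72, -0.81, -1.16, -1.82 and -1.50, adjusted p = 1.38e-05) and with P4 to 71.1% (adjusted p = 0.0239). NDUFAF6 averaged -0.85 with HIPP by its brighter probe. Its very dim probe, above background in the treated channel of 0 of 5 HIPP arrays, read -1.90, so the mean of both, -1.38 ± 0.33, is not a measured fold. Of the associated factors and the genes matched by name, DMAC2L was higher in shCtBP2 cells (0.39 ± 0.12, adjusted p = 0.0454), and EMC8 was lower with HIPP and P4 (-0.28 ± 0.15 and -0.32 ± 0.10).

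The 7 calls in shCtBP2 cells were small. Those of COX5B and UQCRQ were kept when any 1 array was left out and lost with slide as a block, and that of COX5B also with background-subtracted signals centred on the median (-0.14). CYC1 and DMAC2L lost theirs without any 1 shCtBP2 array (DMAC2L also without HIPP array 3 or 5 or P4 array 3 or 5), NDUFAF5 without shCtBP2 array 3, 4 or 5, COX7B2 without array 1, 2, 4 or 5, and ATP5ME without array 2, 3, 4 or 5. With slide as a block 0 genes were lower in shCtBP2 cells and 5 were higher.

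The treatments were then compared with each other. Between HIPP and shCtBP2, 27 of the 52 respiratory chain genes tested differed, 20 of them lower and 7 higher with HIPP, against 26.3% of all genes. ATP5F1A differed by -1.44 (95% interval -2.10 to -0.77, adjusted p = 0.00298) and SDHD by -1.25 (-1.97 to -0.54, adjusted p = 0.0119). ATP5MC3 differed by -1.27 (-1.62 to -0.92, adjusted p = 4.51e-05), a call lost with its brightest probe alone (-0.29, adjusted p = 0.341). NDUFAF6 was called too, but by its brighter probe, the only one above background in the treated channel of HIPP arrays (4 of 5), the difference was -0.65 (adjusted p = 0.0999). SDHB, SDHC, ATP5F1C, ATP5MG and CYC1 were also lower, with differences of -1.21, -1.07, -1.20, -1.20 and -0.83. By the brightest probe alone that of ATP5MG was -0.30 (adjusted p = 0.0334). In the other direction NDUFAF3 differed by 1.00 (0.68 to 1.32), NDUFAF7 by 1.00 (0.67 to 1.32), COX5B by 0.69 (0.46 to 0.92) and NDUFAF1 by 0.66 (0.31 to 1.01), which turned to -0.0329 with uncorrected mean signals. The differences of NDUFAF7 and NDUFAF1 were no longer called with slide as a block. When 1 array was left out, the filter in 4 cases removed a gene that had differed: COX5B without HIPP array 1 (0.73), NDUFAF7, NDUFAF1 and ATP5F1A without shCtBP2 array 1, 4 and 2 (1.03, 0.65 and -1.43). Within slide 3 the difference was -1.98 for ATP5F1A, -2.25 for SDHD, 1.14 for NDUFAF3 and 0.72 for COX5B.

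**Figure D4:**
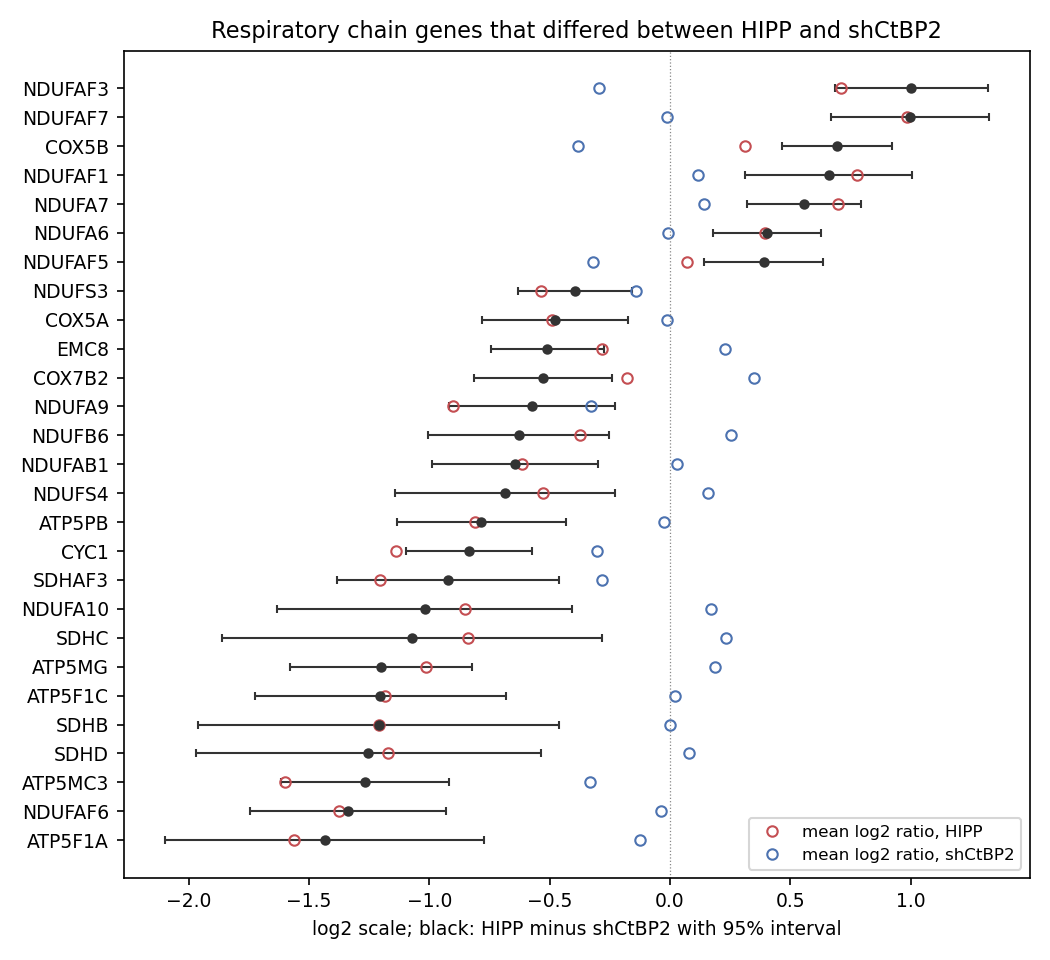
The 27 respiratory chain genes that differed between HIPP and shCtBP2. Black points are the difference in mean log2 ratio with its 95% interval, and open circles are the means of HIPP (red) and shCtBP2 (blue). The blue circles lie between -0.38 and 0.35, and 20 differences are below 0. The point of NDUFAF6 includes a probe not above background with HIPP.

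Between P4 and shCtBP2, 10 of 50 genes differed, 7 lower and 3 higher with P4, against 12.0% of all genes. ATP5F1C differed by -1.13 (-1.65 to -0.60, adjusted p = 0.00757), ATP5F1A by -1.09 (-1.76 to -0.43, adjusted p = 0.0335), NDUFA10 by -0.96 (-1.57 to -0.34, adjusted p = 0.0424) and ATP5MG by -0.72 (-1.10 to -0.35, adjusted p = 0.0156). COX5B differed by 0.77 (0.55 to 1.00, adjusted p = 0.000341), NDUFAF3 by 0.58 and NDUFAF7 by 0.54. NDUFA10 lost its call without any 1 shCtBP2 array and without HIPP array 2 or P4 array 1, 4 or 5, and ATP5F1A without shCtBP2 array 1, 3, 4 or 5 and without P4 array 1, 4 or 5. ATP5MG lost its call with the brightest probe alone. NDUFAF7 did so without shCtBP2 array 3, 4 or 5 or P4 array 1, 2 or 5, and NDUFAF3 without shCtBP2 array 1 or 3 or P4 array 5. In 6 further cases the filter removed a gene that had differed: NDUFAF7 without shCtBP2 array 1, ATP5F1A and ATP5MG without shCtBP2 array 2, COX5B and NDUFAF3 without P4 array 1 and NDUFAF3 without P4 array 4. SDHB (-0.97, -1.72 to -0.22, adjusted p = 0.0873) and SDHD (-0.93, -1.64 to -0.21, adjusted p = 0.088) did not pass. With the replicate number as a block, SDHD (adjusted p = 0.0453) and NDUFAF1 (0.52, adjusted p = 0.0242 against 0.051) passed in limma, and none of the 10 calls was lost. The 2 treatments share no slide, and with slide as a block 3 genes passed the threshold, without COX5B, NDUFAF3, NDUFAF7, ATP5F1A and NDUFA10.

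HIPP and P4, the oxime and the hydrazone, differed in 4 of 69 genes, against 10.6% of all genes, and 2 of the 4 calls rest on a dimmer probe. The labels do not give the concentrations, so the values are not known to stand at matched doses, and all cells were collected at 24 h. SDHAF3 (-0.71, -1.17 to -0.25, adjusted p = 0.0478), ATP5MC3 (-0.89, -1.24 to -0.54, adjusted p = 0.0032) and NDUFAF6 were lower with HIPP, and NDUFV3 was higher (0.53, 0.30 to 0.76, adjusted p = 0.00634), though at -0.12 with uncorrected mean signals. By the brightest probe alone the difference was 0.10 for ATP5MC3 and -0.44 for NDUFAF6 (adjusted p = 0.877 and 0.383), and SDHAF3 did not pass in 15 alternatives, among them the removal of any 1 shCtBP2 array, of HIPP array 3, 4 or 5 or of P4 array 1, 2, 3 or 5. For most of the genes that fell, a difference was not seen, and the intervals were wide: -0.03 (-0.35 to 0.30) for SDHA, -0.24 (-0.99 to 0.51) for SDHB, -0.34 (-1.01 to 0.32) for ATP5F1A, -0.02 (-0.74 to 0.71) for ATP5F1B and 0.00 (-0.58 to 0.59) for UQCRFS1. The difference of CYC1 was -0.29 (-0.56 to -0.03, adjusted p = 0.162). With slide as a block 0 of the 4 genes passed, and within slide 2, which held 3 HIPP arrays and 1 P4 array, the differences were -0.41 for SDHAF3, -0.75 for ATP5MC3 and 0.54 for NDUFV3.

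Other genes of mitochondrial respiration were read against the same background, which was 23.9% lower and 24.8% higher among all genes tested with HIPP, 14.8 and 17.0% with P4, and 6.87 and 6.52% in shCtBP2 cells. Of the 13 enzymes of the citrate cycle, which feeds the chain, 9 were tested with HIPP and all 9 were lower, and with P4 6 of 9 were lower and 0 higher (4 to 8 lower when 1 array was left out). The others were not tested, and the median of all 13 was -0.65 with HIPP and -0.42 with P4. In shCtBP2 cells limma called 0 of 10. SUCLG1, a subunit of succinyl-CoA ligase, read -0.83, -1.34, -1.13, -1.14 and -1.38 with HIPP (adjusted p = 2.52e-07) and -1.28, -0.95, -0.62, -1.03 and -1.01 with P4 (adjusted p = 7.46e-06). FH, fumarase, read -0.67, -0.94, -1.11, -1.45 and -1.40 with HIPP and -1.15, -0.75, -0.77, -1.23 and -1.22 with P4. IDH3G, the gamma subunit of NAD-dependent isocitrate dehydrogenase, averaged -1.43 ± 0.49 with HIPP, and DLST, a subunit of the 2-oxoglutarate dehydrogenase complex, averaged -0.98 ± 0.53 with P4. These 4 genes span the steps on either side of succinate dehydrogenase.

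Assembly factors outside the name rule fell more often than they rose with the inhibitors. With HIPP 16 of 27 were lower and 2 higher, led by ACAD9, a complex I factor (-1.37 ± 0.27, adjusted p = 5.52e-08), ATPAF1, an ATP synthase factor (-1.24 ± 0.15, adjusted p = 3.07e-06), and NUBPL, which supplies iron-sulfur clusters to complex I (-1.11 ± 0.49, adjusted p = 0.00135). With P4 10 of 26 were lower and 2 higher. In shCtBP2 cells 1 of 28 was lower and 3 higher; the lower one, LRPPRC, which stabilizes mitochondrial messenger RNA, read -0.38, -0.66, -0.57, -0.59 and -0.58 (adjusted p = 0.000494).

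Among electron carriers and the enzymes that make ubiquinone or deliver electrons to it, 8 of 15 were lower and 4 higher with HIPP, and 7 of 13 lower and 1 higher with P4. This list also holds CYC1. PDSS1 and PDSS2, which together make the side chain of ubiquinone, averaged -1.24 ± 0.26 and -1.60 ± 0.60 with HIPP (adjusted p = 5.79e-07 and 2.39e-06), and CYCS, cytochrome c, -0.97 ± 0.36 with P4 (adjusted p = 0.000168), or -0.48 by its brightest probe (adjusted p = 0.0891). Without P4 array 4 or 5 the lower count with P4 was 4. In shCtBP2 cells 3 of 14 were lower, CYC1 among them, and 0 higher, and the lower count was 1 without array 1, 2, 4 or 5. DHODH, which passes electrons from pyrimidine synthesis to ubiquinone, was lower in shCtBP2 cells (-0.39 ± 0.11, adjusted p = 0.00894), a call not kept with slide as a block. With HIPP it was higher (0.68 ± 0.14, adjusted p = 1.45e-05).

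Of the regulators of respiratory genes, 5 of 12 were higher and 1 lower with HIPP, 2 of 13 were higher and 1 lower with P4, and in shCtBP2 cells limma called 0 of 11. The higher count with HIPP was 2 without HIPP array 2 or 3 and 3 without HIPP array 4. The lower count with P4 was 0 without P4 array 4 or 5. GABPB1, a subunit of the GABP factor, was higher with HIPP (0.84 ± 0.33, adjusted p = 2.37e-05), as was PPRC1, a coactivator (0.65 ± 0.31, adjusted p = 0.000429), while TFB2M, a transcription factor of mitochondrial DNA, was lower (-0.82 ± 0.54, adjusted p = 0.00164). Of the chaperones and proteases of mitochondria, 6 of 11 were lower and 1 higher with HIPP, 5 of 12 lower and 3 higher with P4, and 2 of 9 lower in shCtBP2 cells. The lower count was 3 with HIPP without HIPP array 5, 3 with P4 without P4 array 1, 4 or 5, and 1 in shCtBP2 cells without array 1, 2, 4 or 5. The protease OMA1 averaged -0.70 ± 0.34 with HIPP, and AFG3L2 averaged -0.65 ± 0.20 with P4.

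Of the 13 mitochondrially encoded subunits, 3 were found among the array's probes, MT-ND2 and MT-ND5 of complex I and MT-CYB of complex III, and their sign was opposite to that of most called nuclear subunits. MT-ND5 read 0.12, 0.62, -0.01, 1.30 and 1.71 on the HIPP arrays (mean 0.75 ± 0.75, adjusted p = 0.0108), MT-ND2 0.08, 0.29, -0.07, 1.00 and 1.22 (0.50 ± 0.57, adjusted p = 0.045) and MT-CYB 0.14, 0.27, -0.14, 0.96 and 1.25 (0.50 ± 0.59, adjusted p = 0.0336). HIPP arrays 4 and 5 were the highest for all 3. The 3 calls were lost without HIPP array 4, and without HIPP array 5 MT-ND2 was no longer called and the other genes were left out by the filter. The call of MT-ND2 was the weakest and held in 13 of 25 alternatives. None was past the threshold with P4 or in shCtBP2 cells, where all 15 values of the 3 genes were below 0 and the means ran from -0.49 to -0.23.

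**Figure D5:**
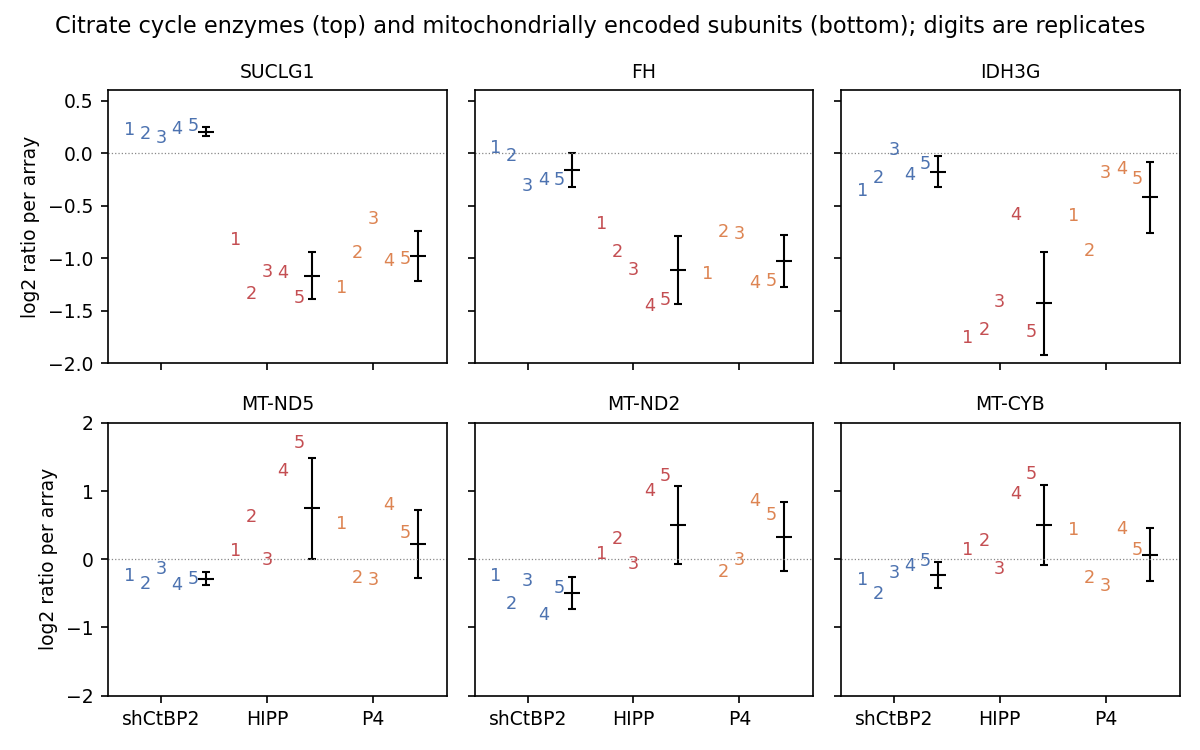
Log2 ratio on each array of 3 citrate cycle genes (top row) and of the 3 mitochondrially encoded subunits measured (bottom row). Digits are replicate numbers, and black marks are mean ± SD (n = 5; 4 for MT-ND2 with P4). The citrate cycle genes lie below 0 on all HIPP arrays, and the mitochondrially encoded genes are highest on HIPP arrays 4 and 5.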

How the data were processed

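The data are 15 Agilent whole human genome arrays with 2 channels, 5 per treatment. The authors processed the scans with Feature Extraction (version 9.5 per the file headers), which corrected background and dye differences, and deposited signal intensities and a log10 ratio per spot. The deposited series table of the same arrays, which holds log10 ratios, served as an alternative. No columns of the authors' own comparisons were used.

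Here, log2 of the Cy5 over the Cy3 processed signal was taken, spots that the software had marked non-uniform or outlying (78 to 265 per array) were dropped, and probes were averaged per gene. Genes had to be measured on 3 of 5 arrays. The 11% with the lowest interquartile range over the channel signals of a treatment were removed, a filter taken from the study's methods. All 15 arrays entered 1 limma fit (version 3.58.1 in R 4.3.3) with a term per treatment, each treatment was tested against 0 and against the others, and p-values were adjusted by Benjamini-Hochberg over the 27580 genes tested per treatment (24961 to 25077 per difference), with a threshold of 0.05. The deviations of same-numbered P4 and shCtBP2 arrays from their group means correlated at 0.138 to 0.352, all 5 over 0.1. Only 5 of 10 arrays correlated best with their own number, and shCtBP2 array 4 had 0.183 with P4 array 3 against 0.138 with P4 array 4. A pairing by number is therefore a hint from the data, since the labels give the number alone. The main fit holds no term for it, and fits with the replicate number as a block are given as alternatives. The fit was tested on simulated data first. The number of arrays limits the precision.

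Genes were named where they were the 4 highest or lowest called in a treatment with 1 direction on all arrays, passed the methods' fold change, stood on a fixed list or led a difference between treatments, and for other pathways the 3 largest changes of a list. Other members were named to complete a complex, after their values were seen. The values of 1 member are not reported here. Members, lists and tests were chosen with earlier results of these data known. Promoters came from RefSeq (GRCh38.p14). The alternatives were background corrections and scalings, filters, probe choice, slide and replicate blocks, single treatments, the methods' t-test and leaving out each array.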

Additional observations from a re-analysis of the deposited data

Results flagged for a closer look

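The following respiratory chain genes differed between treatments in a test of the difference itself, and each value is a difference in mean log2 ratio. HIPP minus shCtBP2 was 1.00 for NDUFAF3, 1.00 for NDUFAF7, 0.69 for COX5B and 0.66 for NDUFAF1. It was -1.44 for ATP5F1A, -1.34 for NDUFAF6, -1.27 for ATP5MC3 and -1.25 for SDHD. The value of NDUFAF6 includes a probe not above background in cells with HIPP, and by the brighter probe NDUFAF6 and ATP5MC3 differed by -0.65 and -0.29 (adjusted p = 0.0999 and 0.341 in limma). P4 minus shCtBP2 was 0.77 for COX5B, 0.58 for NDUFAF3 and 0.54 for NDUFAF7. It was -1.13 for ATP5F1C, -1.09 for ATP5F1A, -0.96 for NDUFA10 and -0.72 for ATP5MG. HIPP minus P4 was 0.53 for NDUFV3, -1.09 for NDUFAF6, -0.89 for ATP5MC3 and -0.71 for SDHAF3. By the brighter probe it was -0.44 for NDUFAF6 and 0.10 for ATP5MC3 (adjusted p = 0.383 and 0.877), and P4 minus shCtBP2 was -0.13 for ATP5MG (adjusted p = 0.455). In 57 pairs of a named gene and a treatment, 0 had 1 array far from the other 4 by Dixon's criterion at its 95% limit.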

How the results depend on the processing

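The numbers of genes lower with HIPP and P4 stayed within 1.5 times their value in most alternatives, whereas the number higher with P4, the small counts in shCtBP2 cells and the differences between P4 and the other treatments moved more often. The number that differed between HIPP and shCtBP2 moved by over 1.5 times with mean signals only. The cause was not tested in any of them, beyond what a setting itself does. With normexp correction and loess, 5 genes were lower in shCtBP2 cells. With background-subtracted signals centred on the median, 10 were higher and 1 lower in shCtBP2 cells (median 0.10), 25 were higher with P4 (median 0.0355) and 16 differed between HIPP and P4. Mean signals with no correction for background or dye gave 0 genes higher in shCtBP2 cells (median 0.11), 0 higher with HIPP (median -0.70), 2 higher and 6 lower with P4, and 2, 0 and 0 that differed between HIPP and shCtBP2, P4 and shCtBP2, and HIPP and P4. The series table gave 7 higher in shCtBP2 cells and 7 that differed between HIPP and P4. Without the interquartile range filter 17 differed between P4 and shCtBP2. With probes above background only, 7 were higher and 6 lower in shCtBP2 cells, 19 differed between P4 and shCtBP2 and 8 between HIPP and P4. With the brightest probe of each gene, 5 were lower in shCtBP2 cells and 2 differed between HIPP and P4. With slide as a block, 0 were lower in shCtBP2 cells (median 0.15), 2 were higher with P4 (median -0.19), 3 differed between P4 and shCtBP2 and 0 between HIPP and P4, while the count lower with HIPP was again 34. As a random block, slide gave 5 lower in shCtBP2 cells. With each treatment's own arrays alone, 7 were lower in shCtBP2 cells, 9 higher with HIPP, and 1 higher and 12 lower with P4. The methods' t-test after Benjamini-Hochberg gave 2 higher in shCtBP2 cells, 4 higher and 13 lower with HIPP, and 0 higher and 5 lower with P4. With the fold-change thresholds added, 0 were higher and 0 lower in shCtBP2 cells, 0 higher and 3 lower with HIPP, and 0 higher and 6 lower with P4.

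Leaving out 1 array gave 1 to 5 genes higher and 1 to 4 lower in shCtBP2 cells, and 5 to 14 that differed between P4 and shCtBP2. The higher count was 2, 1, 2, 1 and 1 without shCtBP2 array 1, 2, 3, 4 or 5, and the lower count 1 without array 3, 4 or 5. The difference between P4 and shCtBP2 was called in 5 genes without shCtBP2 array 1 or 3 or P4 array 5, and in 6 without shCtBP2 array 4 or 5 or P4 array 1 or 4. The counts with HIPP were then 13 to 15 higher and 28 to 37 lower, with P4 8 to 11 and 19 to 25, and 24 to 30 and 3 to 5 genes differed from shCtBP2 and between the inhibitors. The alternatives for the other pathways were chosen after seeing the data. The ratio of COXFA4L2, not above background on any array, turned sign with HIPP under normexp (-0.0016) and with mean signals in shCtBP2 cells, HIPP and P4 (-0.25, -0.31 and -0.26). With mean signals, HIPP minus shCtBP2 became -0.0431 for COX5B and -0.0329 for NDUFAF1, and HIPP minus P4 became -0.12 for NDUFV3. With the brightest probe, HIPP minus P4 became 0.10 for ATP5MC3.

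The deviations of same-numbered HIPP and shCtBP2 arrays correlated at 0.0691 to 0.306, and those of HIPP and P4 arrays at -0.0276 to 0.472, with 4 of 5 pairs over 0.1 in each, so that these too are known to share only a number. In each case 4 of 10 arrays correlated best with their own number, a hint from the data and not from the design. With a replicate block 7 genes differed between HIPP and P4, and the count of complex I subunits lower with HIPP was 14 in place of 9. No other count over all respiratory chain genes moved by over 1.5 times, and of the counts by complex and role only those of 2 or fewer genes did. The block lost none of the calls of respiratory chain genes in any treatment or difference, and it added 7 with HIPP, 3 with P4 and 3 in shCtBP2 cells. Dim probes limit the ratios of COX7A1, COXFA4L2 and the dimmer probe of NDUFAF6.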
